A study of Danio rerio with 121 samples.

Results

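Oxidative phosphorylation subunits were taken as every gene of the zebrafish count table whose symbol marked it as part of a respiratory complex or of ATP synthase (symbols starting with nduf, uqcr, cox4 to cox8, atp5, sdha to sdhd, or mt- followed by nd, co, atp or cyb). The rule found 115 genes among 24801 symbols, and all 115 passed the filter on low counts, so that each was tested among 21638 genes. They comprised 89 nuclear subunits, of which 37 belonged to complex I, 5 to complex II, 8 to complex III, 22 to complex IV and 17 to complex V. The remaining genes were 13 subunits encoded by the mitochondrial genome, 11 assembly factors (ndufaf and sdhaf genes) and 2 inhibitors of ATP synthase (atp5if1a and atp5if1b). A further 4 symbols written in capital letters (COX7A2, NDUFB1, NDUFAF8 and COX5B) were not matched by the rule and were left out. A count was present in every library for 96 of the genes, and 3 averaged fewer than 10 counts per library.

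The electron transport chain passes electrons from NADH and succinate to oxygen through complexes I to IV, and pumps protons across the inner mitochondrial membrane as it does so. Complex V, the ATP synthase, uses the return of these protons to make ATP. Complex II is encoded by nuclear genes alone, whereas complexes I, III, IV and V are built from both nuclear and mitochondrial gene products. Several complex IV subunits exist as pairs of genes that in mammals differ by tissue, with forms used in heart and skeletal muscle or in lung.

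The study followed wild-type RIKEN WT (RW) zebrafish at 9 stages, from embryos with 6 somites (6 ss) to larvae at 96 h post-fertilization (hpf), by 3′ RNA sequencing of total RNA. The libraries fell into 3 kinds, here called plain (replicates numbered alone, at 6, 15 and 20 ss and 24, 48, 72 and 96 hpf), S (replicates marked S, at 6, 10 and 15 ss and 96 hpf) and DrRyu (a set named so in the count table, at 20 ss and 24, 32, 48 and 72 hpf). Each stage of each kind had 8 libraries, except 15 ss with 4 plain and 5 S libraries. The meaning of the S mark was not given, the sources differ on whether a library held an individual or a pool, and 10 ss and 32 hpf were each sampled in a single kind, so that stage and kind cannot be told apart there.

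Library totals ranged from 866854 to 21646478 counts. The recorded year was 2020 for plain and S libraries and 2021 for DrRyu libraries, so comparisons of stages were made within a kind. Comparisons between kinds are named as such. A number recorded for each library as used was 50 in plain libraries except at 20 ss (10) and 96 hpf (5), and in S libraries it was 25 at 6 ss, 20 at 10 ss, 15 at 15 ss and 1 at 96 hpf. Its part in the results was not tested. Of 4 genes of the segmentation clock and presomitic tissue, all 4 fell between 6 ss and 96 hpf in plain libraries, beside 22.6% of all genes. Of 5 larval organ markers 4 rose, beside 32% of all genes. The RNA came from whole animals, in which fewer cells of a type and less RNA per cell cannot be told apart. Changes are given as log2 fold changes ± SE from an edgeR quasi-likelihood fit, called at a Benjamini-Hochberg adjusted p under 0.05, and levels as CPM, the usual library-size unit for counts, after TMM scaling. As separate cultures or clutches were not labelled, the p-values measure the spread between libraries only.

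The share of all counts taken by subunit genes was higher at 96 hpf than at 6 ss for both genomes, with intermediate stages that did not all follow one direction. In plain libraries the 13 mitochondrially encoded genes took 1.61% to 2.31% of counts at 6 ss (median 1.95%, n = 8), 1.96% to 2.78% at 24 hpf (median 2.15%), 2.87% to 3.57% at 48 hpf (median 3.42%), 4.58% to 5.05% at 72 hpf (median 4.72%) and 4.71% to 5.37% at 96 hpf (median 5.10%). At 15 and 20 ss the mitochondrial medians were 2.44% (n = 4) and 2.37%, above that at 24 hpf, with ranges that overlapped the one at 24 hpf. The 6 ss and 24 hpf ranges overlapped, whereas 48 hpf lay above both and 72 and 96 hpf lay above 48 hpf. The 89 nuclear subunit genes took 1.28% to 1.37% at 6 ss (median 1.33%), 1.62% to 2.01% at 24 hpf (median 1.80%), 1.79% to 2.02% at 48 hpf (median 1.92%), 2.56% to 2.62% at 72 hpf (median 2.60%) and 2.56% to 2.69% at 96 hpf (median 2.61%). Its medians at 15 and 20 ss were 1.402% and 1.629%. The nuclear share was thus higher in every library at 24 hpf than at 6 ss, overlapped between 24 and 48 hpf, and overlapped again between 72 and 96 hpf. In DrRyu libraries the mitochondrial share was 2.10% to 2.91% at 20 ss and 2.97% to 3.69% at 24 hpf, with no overlap. The medians of both DrRyu shares were lower at 32 than at 24 hpf (3.04% against 3.41% for the mitochondrial and 2.01% against 2.16% for the nuclear share), and these ranges overlapped. The ratio of the mitochondrial to the nuclear share in plain libraries was 1.21 to 1.75 at 6 ss, 1.12 to 1.39 at 24 hpf, 1.54 to 1.84 at 48 hpf and 1.77 to 2.10 at 96 hpf. In DrRyu libraries the ratio had medians of 1.27 at 20 ss and 1.59 at 24 hpf, with ranges that overlapped.

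**Figure D1:**
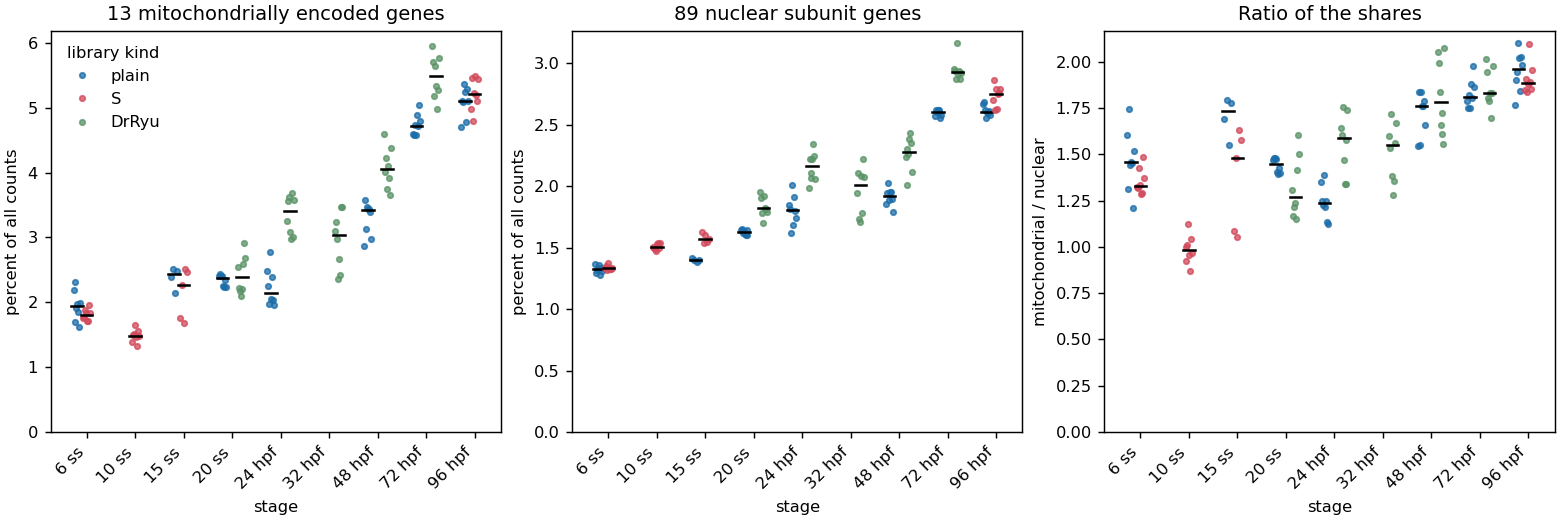
Percent of all counts in the 13 mitochondrially encoded genes (left) and the 89 nuclear subunit genes (middle), and the ratio of these shares (right), by stage. Each point is a library, colored by its kind, and bars are medians. Medians of the mitochondrial share in plain libraries ran from 1.95% at 6 ss to 5.10% at 96 hpf, and the ratio was lowest in the 10 ss S libraries.

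Over the whole span of the plain libraries, from 6 ss to 96 hpf, 99 of the 115 genes rose and 5 fell, with a median log2 fold change of 1.27. Over all genes tested, 32% rose and 22.6% fell, with a median of 0.25. Among the nuclear subunits 82 of 89 rose and 2 fell (median 1.29), and among the mitochondrially encoded genes 12 of 13 rose and none fell (median 1.26). By complex, the nuclear subunits that rose were 35 of 37 for complex I (median 1.27), 4 of 5 for complex II (2.15), 7 of 8 for complex III (0.85), 19 of 22 for complex IV (1.12) and 17 of 17 for complex V (1.46). The S libraries, which gave a second sample of both ends of this span, had 101 genes higher and 2 lower with a median of 1.43, beside 30.5% and 22.6% of all genes. The median of all genes in the plain comparison depended on the scaling, from 0.08 with library totals alone to 0.48 with DESeq2 size factors and the DESeq2 test, and the subunit changes are read relative to it.

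By log2 fold changes of single genes after TMM scaling, the step from 6 ss to 24 hpf held most of the nuclear change. The timing depended on the measure. As a share of all counts, the nuclear median went from 1.33% at 6 ss to 1.80% at 24 hpf. It gained more percentage points between 48 hpf (1.92%) and 72 hpf (2.60%), and as fold changes these rises of the share were alike. After TMM scaling the summed nuclear level had medians of 12235 CPM at 6 ss, 20186 at 24 hpf, 23080 at 48 hpf and 27322 at 72 hpf. The lead of the first step thus depended on the scaling. In plain libraries 92 of the 115 genes rose and 2 fell from 6 ss to 24 hpf (median 0.75), beside 21.1% and 11.2% of all genes (median 0.18). The risers were 79 of the 89 nuclear subunits (median 0.83) and 7 of the 13 mitochondrially encoded genes (median 0.41). Of the 89 nuclear subunits, 76 had their largest rise of the 4 steps between 6 ss and 24 hpf. The 13 mitochondrially encoded genes divided as 1 at that step, 5 between 24 and 48 hpf, 7 between 48 and 72 hpf and 0 between 72 and 96 hpf. These counts used TMM scaling alone and were not made over all genes. Of all genes, 4571 were called higher in the first step, against 2571, 814 and 512 in the later ones. With RLE size factors the all-gene median was 0.06 from 6 ss to 24 hpf and 0.16 from 24 to 48 hpf, in place of 0.18 and -0.03. Of all genes called from 6 ss to 24 hpf, 65.3% were higher, and 47.6% were higher with library totals in place of TMM.

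Later steps had smaller median log2 fold changes for nuclear genes. Between 24 and 48 hpf, 38 genes rose and 7 fell (median 0.16), beside 11.9% and 14.3% of all genes (median -0.03). These were 29 nuclear subunits higher and 3 lower, and 8 mitochondrially encoded genes higher and 0 lower. With RLE size factors 77 of the 115 genes were called in place of 45, 73 of them higher, and 62.3% of all calls were higher in place of 45.3% (61.2% with DESeq2). Between 48 and 72 hpf, 41 rose and 1 fell (median 0.28), beside 3.76% and 4.41% of all genes (median 0.03). Of all calls in that step 46.0% were higher, against 56.7% with RLE size factors and 74.5% with library totals, and the called subunit genes numbered 89 with library totals. Between 72 and 96 hpf, 3 rose and 2 fell, beside 2.37% and 2.61% of all genes, and the medians were -0.06 and 0.00. Of all calls in this last step 47.6% were higher, against 62.7% with RLE size factors.

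**Figure D2:**
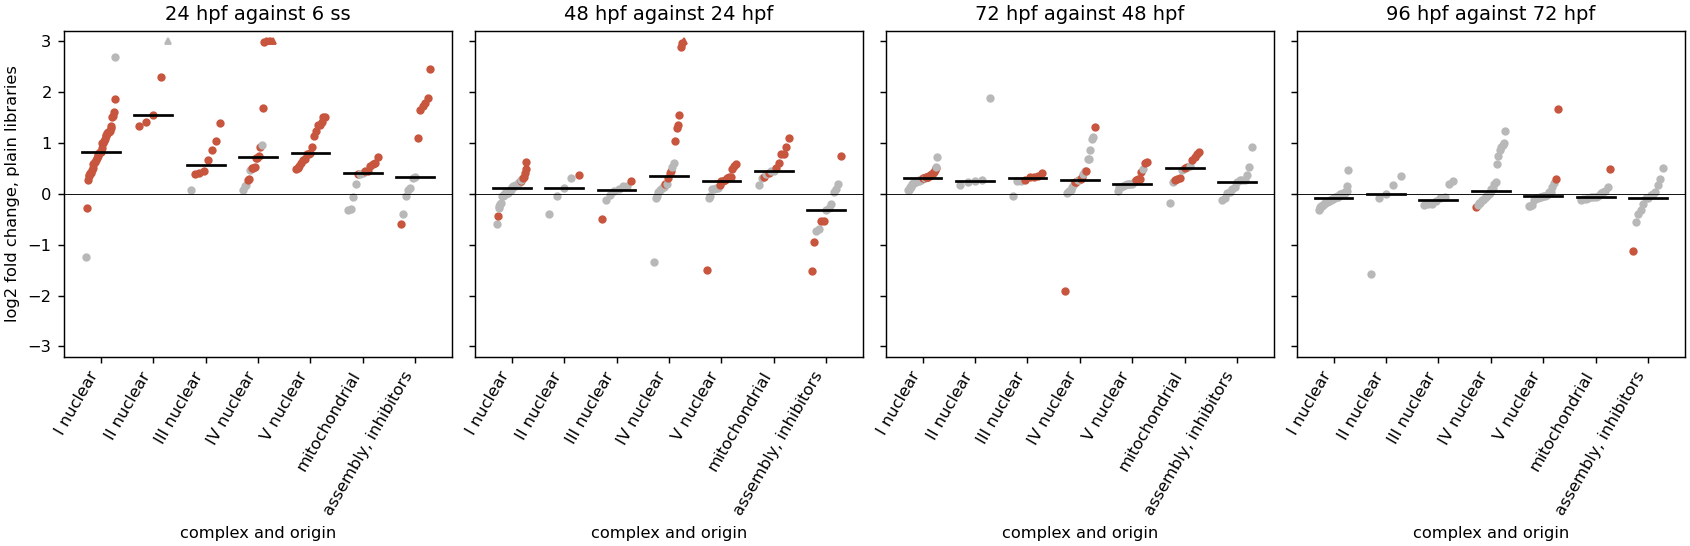
Log2 fold changes of the 115 genes in the 4 successive steps of the plain libraries, by complex and origin. Each point is a gene, red where called and grey where not, triangles lie beyond the axis, and bars are group medians. The nuclear medians were highest in the first step (0.83 over all 89), and the mitochondrially encoded genes had medians of 0.41, 0.46, 0.50 and -0.06 over the 4 steps.

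In complex I, the NADH dehydrogenase, ndufv1 and ndufb10 had the largest rises among subunits averaging 10 counts or more per library. ndufv1, which encodes the subunit that binds NADH, was at 24.5 to 53.1 CPM at 6 ss (median 35.8), 95.8 to 120.7 at 24 hpf (median 108) and 113 to 192 at 96 hpf (median 148). The 6 ss libraries lay below those of both later stages, and the change over the span was 1.99 ± 0.14 (adjusted p = 9.3e-28). ndufb10, an accessory subunit of the membrane arm, went from a median of 34.2 to 151 CPM (2.18 ± 0.14, adjusted p = 1.9e-30). At the other end, ndufs8b, a gene copy of the iron-sulfur subunit ndufs8, had a log2 fold change of -1.29 ± 0.67 that did not pass (adjusted p = 0.094) on a median of 5.31 CPM at 6 ss.

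Complex II, the succinate dehydrogenase, had the highest median change among the nuclear groups, on 5 genes. sdhc, a membrane anchor, was at 14.1 to 25.6 CPM at 6 ss (median 18.8), 74.4 to 111 at 24 hpf (median 93.9) and 113 to 152 at 96 hpf (median 127). These ranges did not overlap, and sdhc rose by 2.78 ± 0.16 (adjusted p = 4.2e-35). The catalytic flavoprotein sdha rose by 2.15 ± 0.15, the iron-sulfur subunit sdhb by 2.04 ± 0.13 and the other anchor sdhdb by 1.74 ± 0.14. The paralog sdhda had 0 counts at 6 ss and 4 counts in all at 96 hpf in plain libraries, and was too low to read.

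Complex III, cytochrome bc1, had the lowest median of the 5 nuclear groups in plain libraries (0.85), whereas in S libraries complex I had the lowest (1.29, against 1.32 for complex III). uqcr10 rose by 1.43 and the core protein gene uqcrc1 by 1.73, while the Rieske iron-sulfur subunit uqcrfs1 rose by 0.56 ± 0.09 (medians of 258 CPM at 6 ss and 372 at 96 hpf). uqcrh, the hinge protein that contacts cytochrome c1, was at 370 to 450 CPM at 6 ss (median 392), 397 to 462 at 24 hpf (median 422), 261 to 325 at 48 hpf (median 305) and 274 to 389 at 96 hpf (median 305). Its 6 ss and 96 hpf ranges overlapped in part. Its fall of -0.35 ± 0.09 (adjusted p = 0.00041) was -0.12 and not called with RLE size factors or DESeq2, and in S libraries it was at 0.09 ± 0.09 and not called. cyc1, the cytochrome c1 gene, which the symbol rule did not take, rose by 0.57 ± 0.10.

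In complex V all 17 nuclear subunits rose in both the plain and the S libraries. atp5mc1, which encodes the ring subunit c that carries protons, was at 145 to 223 CPM at 6 ss (median 165), 361 to 505 at 24 hpf (median 449), 568 to 805 at 48 hpf (median 655), 984 to 1084 at 72 hpf (median 1026) and 797 to 953 at 96 hpf (median 874). Each range lay above the one before it except that of 96 hpf, which lay below 72 hpf, and the rise over the span was 2.35 ± 0.09 (adjusted p = 1.9e-49). atp5po, a subunit of the stalk that holds the catalytic head, rose by 2.01 ± 0.08, from a median of 188 to one of 748 CPM. The smallest rises were those of atp5f1e, the epsilon subunit (0.61 ± 0.09), and atp5mc3a, another subunit c gene (0.80 ± 0.09).

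The mitochondrially encoded genes rose unequally, and in plain libraries most had their largest step after 24 hpf. DrRyu libraries had a different course. Their summed level was 17788 to 26549 CPM at 20 ss (median 22316) and 29891 to 44579 at 24 hpf (median 34524), with no overlap. Later DrRyu medians were 39414 CPM at 48 hpf and 51337 at 72 hpf. The levels that follow are those of plain libraries. mt-co1, the catalytic subunit of complex IV, was at 1784 to 3403 CPM at 6 ss (median 2141), 2288 to 5798 at 24 hpf (median 3443), 4938 to 9734 at 48 hpf (median 8432), 6220 to 7842 at 72 hpf (median 6977) and 7755 to 11920 at 96 hpf (median 9875). Each of these stages overlapped the next, and mt-co1 was called higher at 48 against 24 hpf (1.11 ± 0.13) and at 96 against 72 hpf (0.48 ± 0.13), for 2.00 ± 0.13 over the span (adjusted p = 1.2e-28). mt-cyb, the single mitochondrial subunit of complex III, was at 1262 to 1884 CPM at 6 ss (median 1645), 2443 to 3148 at 24 hpf (median 2495) and 5278 to 5986 at 96 hpf (median 5721). These mt-cyb ranges were separate, with a rise of 1.83 ± 0.10.

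Over the same span mt-atp6 and mt-atp8 of complex V rose by 1.77 and 1.58, mt-co3 and mt-co2 by 1.60 and 1.26, and mt-nd4, mt-nd3, mt-nd2, mt-nd1 and mt-nd6 of complex I by 1.58, 1.25, 1.22, 1.09 and 1.09. mt-nd5, a proton-pumping subunit, was at 107 to 149 CPM at 6 ss (median 133), 82.2 to 104 at 20 ss (median 93.7), 88.6 to 141 at 24 hpf (median 102) and 151 to 239 at 96 hpf (median 198). The mt-nd5 libraries at 20 ss lay below all of those at 6 ss, the step to 24 hpf was not called (-0.30 ± 0.13, adjusted p = 0.053), and the whole span was 0.58 ± 0.13. mt-nd4l had 0.54 ± 0.24 and an adjusted p of 0.0502, and was called with RLE size factors and with DESeq2. The coding regions of mt-atp8 and mt-atp6, and of mt-nd4l and mt-nd4, overlap, and mt-nd6 lies on the opposite strand. The counts were made without strand, so that reads from the overlaps, or from the strand opposite mt-nd6, cannot be assigned to a gene with certainty.

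**Figure D3:**
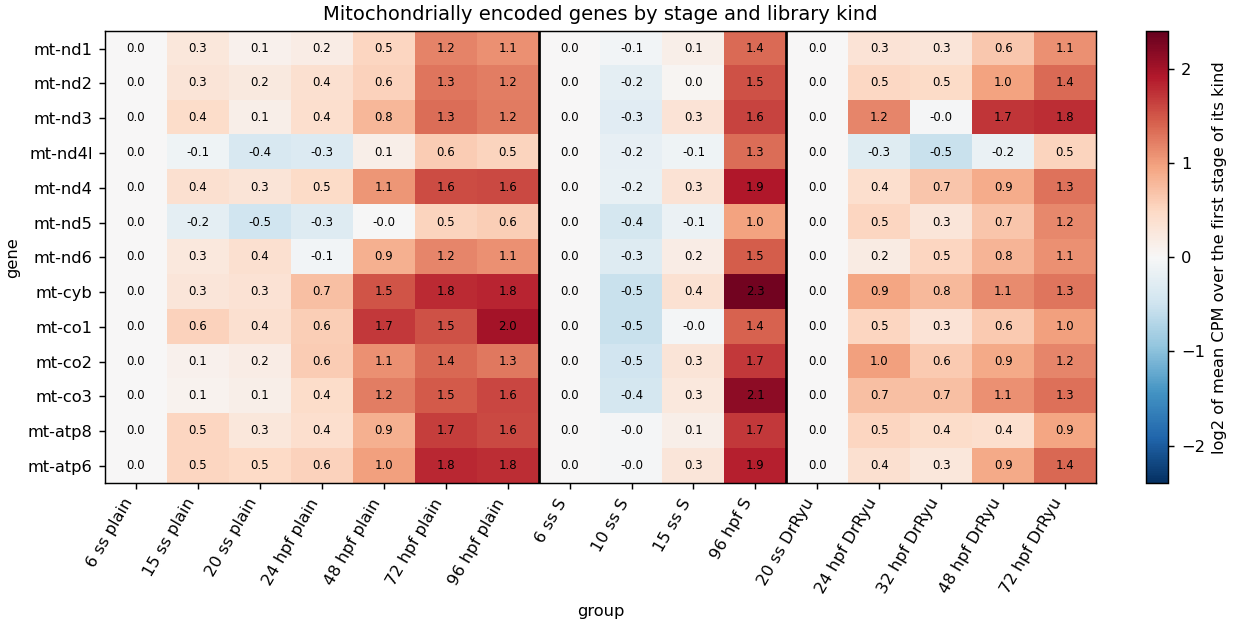
Log2 of the mean CPM of each of the 13 mitochondrially encoded genes relative to the earliest stage of the same kind of library (6 ss for plain and S, 20 ss for DrRyu), by stage and kind. The 10 ss S column is at or below 0 for all 13 genes, and mt-nd4l and mt-nd5 are below 0 at 20 ss and 24 hpf in plain libraries.

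Between 6 and 10 ss, sampled in S libraries, the nuclear and mitochondrial genes that were called went in opposite directions. Of the 115 genes, 11 rose and 4 fell, beside 1.11% and 0.559% of all genes. The 11 that rose were all nuclear, and the 4 that fell were all mitochondrially encoded, namely mt-cyb (-0.54 ± 0.09), mt-co1 (-0.53 ± 0.13), mt-co2 (-0.47) and mt-co3 (-0.41). mt-cyb was at 1136 to 1447 CPM at 6 ss (median 1268), 726 to 954 at 10 ss (median 906) and 1002 to 2262 at 15 ss (median 1910). The 6 and 10 ss libraries did not overlap, and the 15 ss libraries lay above all 10 ss libraries. The mitochondrial share was 1.71% to 1.96% at 6 ss and 1.33% to 1.65% at 10 ss, the nuclear share at 10 ss was 1.47% to 1.53%, and the ratio of the shares was 1.28 to 1.49 at 6 ss against 0.869 to 1.12 at 10 ss, with no overlap. At 15 ss the mitochondrial share was spread from 1.69% to 2.52%. S replicates 1 and 3 of 15 ss had ratios of 1.08 and 1.05, within the 10 ss range. Replicates 2, 4 and 5 had ratios of 1.48, 1.63 and 1.58. The number recorded as used was 25 at 6 ss and 20 at 10 ss, and its part was not tested. Of all calls in this comparison 66.6% were higher, and 77.4% with library totals, under which the subunit genes were 20 higher and 4 lower.

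The 11 nuclear genes that rose between 6 and 10 ss, named here after their values were seen, had 3 members in complex I (ndufb3, ndufb7 and ndufab1b), 2 in complex III (uqcr10 and uqcrc2a), 1 in complex IV (cox7a1) and 5 in complex V, atp5mc1 (0.54 ± 0.09) among them. uqcrc2a, a core protein of complex III, was at 40.3 to 81.8 CPM at 6 ss in S libraries (median 60.5) and 127 to 163 at 10 ss (median 136). The 2 stages were apart, with a rise of 1.31 ± 0.12. In plain libraries uqcrc2a was at 84.0 to 137 CPM at 6 ss (median 92.8). The S and plain libraries of 6 ss did not overlap, and uqcrc2a was the single subunit gene called between them (-0.81 ± 0.12, adjusted p = 3.7e-07), with none higher, beside 0.393% of all genes higher and 0.143% lower. Of all calls there 73.3% were higher, against 54.5% with RLE size factors, 55.9% with DESeq2 and 57.4% with library totals.

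The DrRyu libraries were the only ones to sample 32 hpf. From 24 to 32 hpf 10 genes rose and 19 fell, with a median of -0.04, beside 8.02% and 4.04% of all genes and a median of 0.10. Only 6 of these 29 calls (1 higher, 5 lower) remained when the fit held DrRyu libraries alone, and 66.5% of all calls were higher against 53.7% with RLE size factors and 52.3% with DESeq2. The fallers included 16 nuclear subunits, among them ndufab1a (-0.63 ± 0.11) and uqcrh (-0.37 ± 0.09). Of complex IV, cox6b1 (1.02 ± 0.24), cox5b2 (1.43 ± 0.44) and ndufa4 (0.76 ± 0.22) rose in the fit of all libraries. At most 1 of these risers kept its call with DrRyu libraries alone. The cox6b1 share of the reads of its pair with cox6b2 overlapped, at 2.03% to 15.6% at 24 hpf and 3.68% to 39.1% at 32 hpf. That of ndufa4 with ndufa4l also did, at 2.61% to 11.8% and 6.38% to 18.4%. From 32 to 48 hpf 29 genes rose and 2 fell (median 0.13), beside 7.48% and 11.8% of all genes (median -0.04). Of all calls in that step 38.7% were higher, against 53.3% with RLE size factors and 56.5% with DESeq2, the subunit calls numbering 57 and 58 there and 14 when DrRyu libraries were fitted alone.

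The spread of mt-nd3, a small complex I subunit, was wide in the DrRyu set. It was at 267 to 1156 CPM at 20 ss (median 336), 507 to 3506 at 24 hpf (median 650), 265 to 881 at 32 hpf (median 404), 364 to 2889 at 48 hpf (median 1818) and 325 to 3575 at 72 hpf (median 1193). Every DrRyu stage overlapped every other stage for this gene, whereas plain libraries spanned 1418 to 1959 CPM at 72 hpf. Its calls in DrRyu libraries, such as -1.20 ± 0.28 from 24 to 32 hpf, rest on this spread.

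The span from 20 ss to 72 hpf was sampled in plain and DrRyu libraries alike. In plain libraries 98 genes rose and 3 fell (median 0.91), beside 23.1% and 18.5% of all genes, and in DrRyu libraries 95 rose and 5 fell (median 0.76), beside 27% and 21.2%. The test of the difference between the kinds called 6 genes, with 1 changing more positively and 5 less positively in DrRyu libraries, beside 1.93% and 2.42% of all genes. Of all calls of that difference 44.4% were in the positive direction, against 64.5% with library totals. Of the 5, the 4 named here after their values were seen were ndufv1 (-0.69 ± 0.18), ndufb11, cox7a2a and atp5mc3a, and each of these had a positive log2 fold change in both kinds.

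The 1 gene with a higher change in DrRyu libraries was atp5mea, also named after its values were seen, one of the genes for the small subunit e through which ATP synthase pairs up. It was at 18.5 to 44.2 CPM at 20 ss (median 23.6) and 16.4 to 28.7 at 72 hpf (median 22.9) in plain libraries, and at 88.9 to 167 (median 127) and 148 to 259 (median 236) in DrRyu libraries. The kinds did not overlap at either stage, and the difference in change was 1.04 ± 0.32 (adjusted p = 0.037). Within plain libraries atp5mea fell between 24 and 48 hpf (-1.49 ± 0.24) and rose between 72 and 96 hpf (1.68 ± 0.23), when it was at 52.5 to 112 CPM (median 65.6).

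At 96 hpf, 9 subunit genes were higher in S than in plain libraries and 0 were lower, beside 0.527% and 0.735% of all genes. Their log2 differences ran from 0.32 (atp5f1e) to 0.49 (ndufv3, named after its values were seen). They included mt-nd6 (0.36 ± 0.10) and uqcrh (0.39 ± 0.09). Of the 9 genes, 2 remained called with library totals, under which 17.9% of all calls were higher in place of 41.8%. The change from 6 ss to 96 hpf differed between S and plain libraries for 2 genes, both larger in S, beside 0.157% and 0.638% of all genes. These were uqcrc2a (1.02 ± 0.16, adjusted p = 2.4e-05) and mt-co3 (0.55, adjusted p = 0.0047), and the calls numbered 13 with DESeq2. Of all calls of this difference 19.8% were positive, against 41.3% with DESeq2 and 38.0% with RLE size factors.

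Complex IV, cytochrome c oxidase, held the largest changes of any complex in genes with few or no counts at 6 ss. All of those described but cox5b2 have a partner gene in the set that was counted from 6 ss on. The symbol COX5B, in capital letters, was left out by the rule, and its counts were not examined beside those of cox5b2. cox6b1 was at 0.395 to 3.88 CPM at 6 ss (median 1.87), 0.926 to 7.66 at 20 ss (median 1.75), 19.2 to 112 at 24 hpf (median 70.5) and 164 to 240 at 96 hpf (median 176). The 20 ss and 24 hpf libraries did not overlap, and cox6b1 rose by 6.65 ± 0.36 over the span. Its partner cox6b2 was at 376 to 483 CPM at 6 ss (median 450) and 434 to 537 at 96 hpf (median 492), with 0.11 ± 0.09 that was not called (adjusted p = 0.30) but was with RLE size factors (0.34). cox7a2l, a factor that joins respiratory complexes in mammals, likewise had 0.19 and was not called (adjusted p = 0.10), but was with RLE size factors (0.42). cox6b1 thus went from a median of 0.409% of the reads of the pair at 6 ss to 11.7% at 24 hpf and 26.3% at 96 hpf.

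ndufa4, first assigned to complex I and since placed in complex IV, followed the same course. It was at 0 to 5.04 CPM at 6 ss (median 2.63), 24.4 to 57.8 at 24 hpf (median 37.5) and 107 to 160 at 96 hpf (median 136), and rose by 5.77 ± 0.31. Its libraries at the 3 stages did not overlap, and its share of the reads of the pair with ndufa4l went from a median of 0.659% to 7.91% and 19.3%. cox6b1, ndufa4 and the genes of the next paragraph other than cox5b2 and cox4i1l were named after their values were seen.

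Further complex IV genes had higher levels at 96 hpf than at 24 hpf. cox5b2 had a single count over the 8 plain libraries at 6 ss, was at 0.946 to 3.75 CPM at 24 hpf (median 1.75), 11.4 to 19.2 at 48 hpf (median 16.9) and 21.3 to 66.3 at 96 hpf (median 51.3). cox8b, whose mammalian counterpart is a heart and muscle form, was at 0 to 0.871 CPM at 6 ss, 0.268 to 4.09 at 24 hpf (median 1.78), 7.86 to 21.6 at 48 hpf (median 14.4) and 32.5 to 67.1 at 96 hpf (median 42.0), a rise of 7.94 ± 0.69. For both genes the 24 hpf, 48 hpf and 96 hpf libraries did not overlap. The other counterparts of mammalian heart and muscle forms, cox6a2 and cox7a1, had medians of 28.1 and 28.2 CPM at 96 hpf against 0 and 0.202 at 6 ss (6.91 ± 0.84 and 5.64 ± 0.61), and cox4i2, whose mammalian counterpart is a lung form induced at low oxygen, rose by 3.82 ± 0.44.

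cox4i1l had 0 counts in plain libraries at 6 and 20 ss, and its course turned within the span. It was at 0 to 1.14 CPM at 24 hpf (median 0.649), 25.8 to 53.8 at 48 hpf (median 37.6), 7.35 to 13.1 at 72 hpf (median 9.58) and 9.12 to 28.0 at 96 hpf (median 19.7). The 48 hpf libraries lay above all 72 hpf libraries, and cox4i1l fell over that step by -1.91 ± 0.43 (adjusted p = 0.00068). Against a floor of 3 counts over the 6 ss group, cox4i1l was at least 134.6-fold higher at 96 hpf. In DrRyu libraries its 48 hpf range of 6.65 to 21.9 CPM overlapped that of 72 hpf, 1.36 to 19.3.

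cox7a1 had low early levels that differed between kinds and did not follow one direction. In S libraries it had 0 counts at 6 ss and 125 counts over the 8 libraries at 10 ss, where it was at 0.807 to 12.1 CPM (median 4.91), and at 96 hpf it was at least 267.3-fold higher than the floor at 6 ss. Its share of the reads of the pair with cox7a2a in S libraries was 0.514% to 6.03% at 10 ss and 0% to 4.76% at 15 ss. In plain libraries that share was 0% to 1.03% at 6 ss, 0% to 1.13% at 15 ss and 0% to 0.638% at 20 ss. The level of cox7a1 in plain libraries was 0 to 1.15 CPM at 20 ss and 0.817 to 7.44 at 24 hpf (median 4.85). In DrRyu libraries at 24 hpf the 8 libraries held 2 counts in all, with 0 to 2.47 CPM at 32 hpf (median 1.24).

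Levels of fast muscle and heart markers also moved over these stages. All 12 fast muscle markers rose between 6 ss and 96 hpf in plain libraries, beside 32% of all genes. Their summed level was 305 to 390 CPM at 6 ss, 659 to 751 at 20 ss, 7033 to 11181 at 24 hpf, 69788 to 82770 at 48 hpf and 64727 to 70342 at 96 hpf. In DrRyu libraries that sum was 335 to 466 CPM at 20 ss and 30472 to 47264 at 72 hpf. Of 6 listed heart markers 5 were in the count table, and all 5 rose, beside the same 32% of all genes. Their summed level was 0.388 to 4.34 CPM at 6 ss, 153 to 176 at 24 hpf, 113 to 163 at 48 hpf and 90.5 to 127 at 96 hpf. Among plain libraries the 24 hpf group had the highest median of this heart sum (166 CPM). Among DrRyu libraries the 48 hpf group had the highest median (172 CPM, range 141 to 198). That range overlapped the one of the 24 hpf DrRyu group (33.3 to 194 CPM, median 145). The part of muscle and heart cells in the complex IV changes was not tested.

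**Figure D4:**
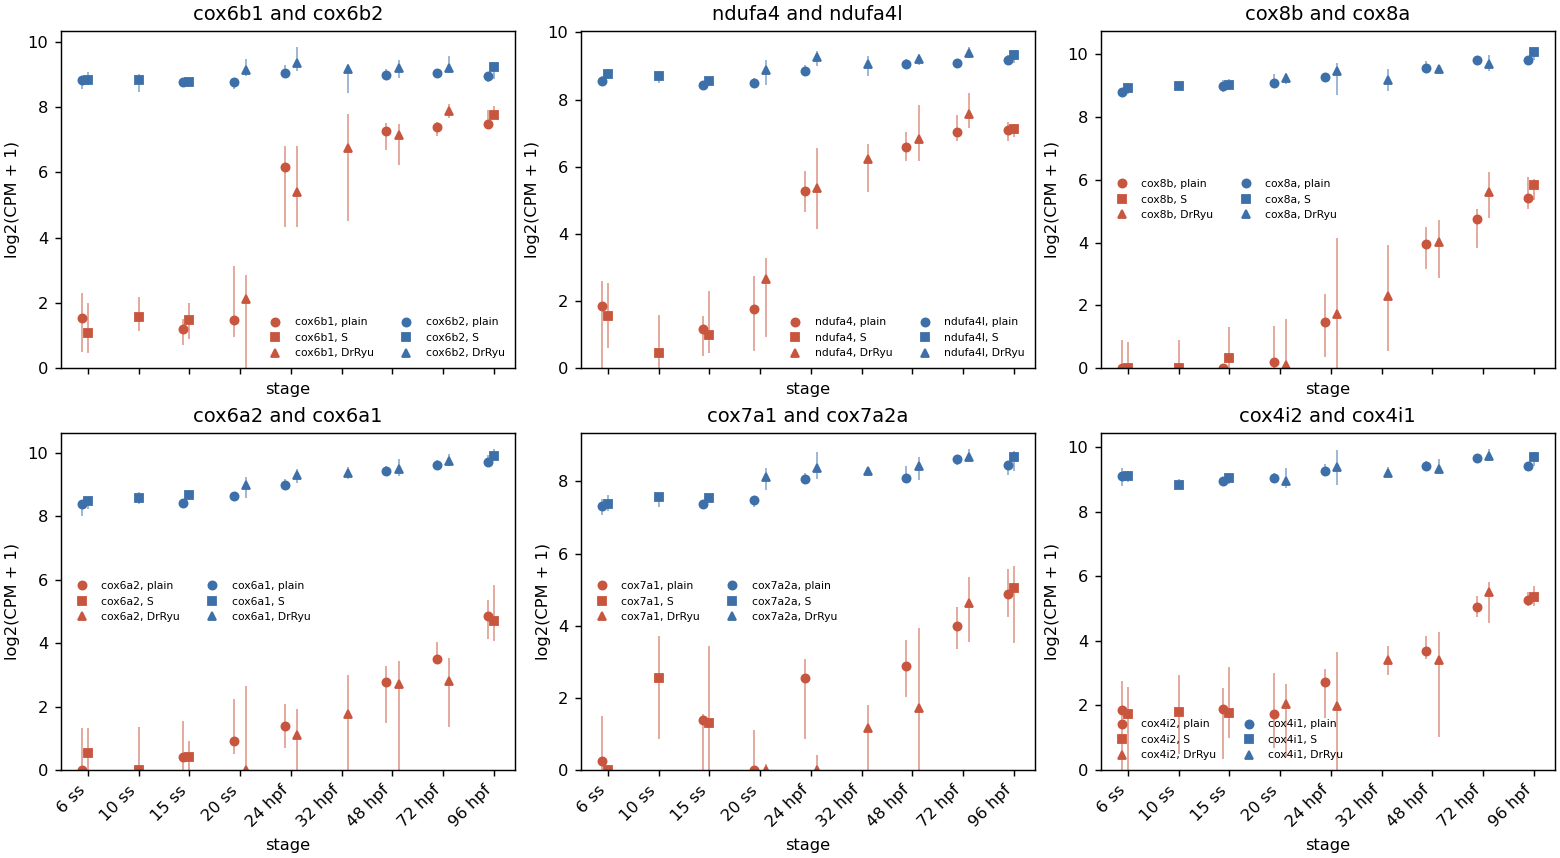
Levels of 6 complex IV genes that were low at 6 ss and higher at 96 hpf (red) and of their partner genes (blue), as log2 of CPM plus 1, by stage. Symbols are medians of each group of libraries, with a shape for each kind, and lines run from the lowest to the highest library. cox6b1 goes from a median of 1.75 CPM at 20 ss to 70.5 at 24 hpf in plain libraries, and cox8b from 1.78 at 24 hpf to 42.0 at 96 hpf.

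In 2 pairs of paralogs the members moved apart. atp5if1b, an inhibitor that blocks ATP synthase from running in reverse, was at 20.9 to 43.2 CPM at 6 ss (median 30.1), 62.8 to 86.3 at 20 ss (median 70.5), 154 to 186 at 24 hpf (median 165) and 180 to 247 at 96 hpf (median 205). These ranges were all separate except for 24 and 96 hpf, and the rise was 2.77 ± 0.13 (adjusted p = 2.6e-41). atp5if1a was at 178 to 232 CPM at 6 ss (median 206) and 153 to 177 at 96 hpf (median 174), with the 96 hpf libraries just below those of 6 ss, a fall of -0.26 ± 0.10 (adjusted p = 0.020) that was not called with RLE size factors (-0.03), with DESeq2 (-0.03), with scaling without the mitochondrial genes (-0.17) or in S libraries (-0.08 ± 0.10). The share of the pair's reads in atp5if1a had medians of 87.3% at 6 ss, 56.8% at 24 hpf and 45.3% at 96 hpf, with ranges at 6 ss and 24 hpf that did not overlap.

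The other pair encodes the acyl carrier protein of complex I, which also serves mitochondrial fatty acid synthesis. ndufab1b rose by 1.05 ± 0.11, from a median of 92.3 to one of 181 CPM. ndufab1a was at 123 to 149 CPM at 6 ss (median 141) and 85.8 to 118 at 96 hpf (median 101), a fall of -0.44 ± 0.11 (adjusted p = 0.00054) that was -0.20 and not called with RLE size factors or DESeq2, and in S libraries it was at 0.03 ± 0.11. Its share of the pair's reads went from a median of 60.1% at 6 ss to 38.6% at 24 hpf and 34.0% at 96 hpf. The authors' counting could split reads between such similar copies, so the values of single copies are uncertain.

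**Figure D5:**
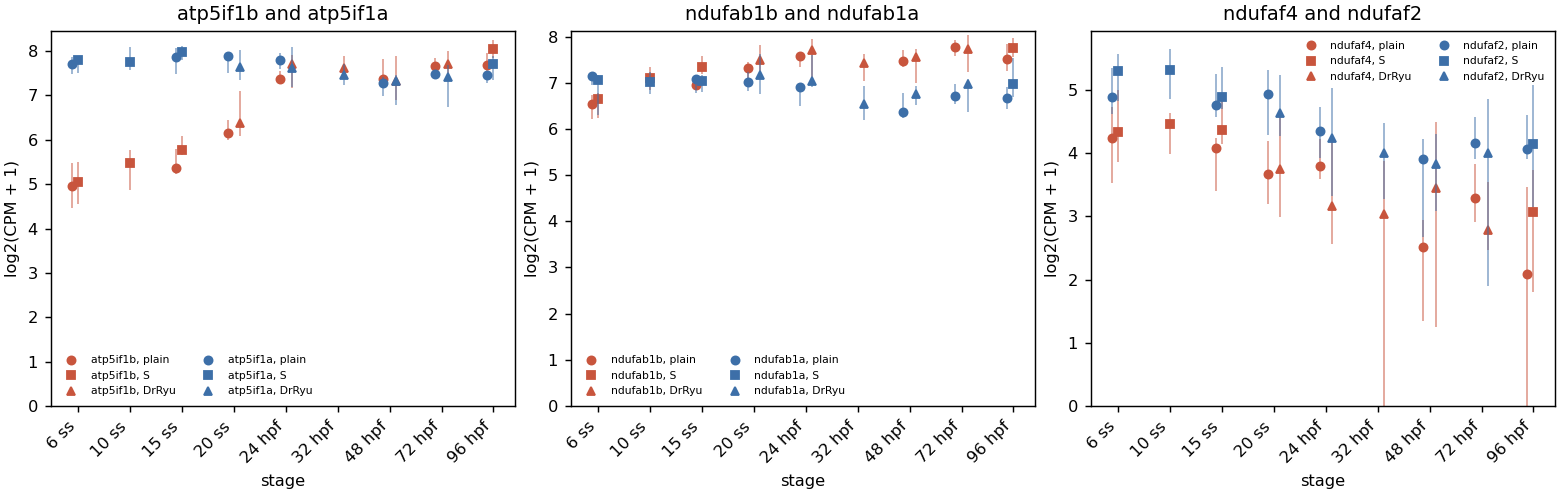
Levels of atp5if1b and atp5if1a, of ndufab1b and ndufab1a, and of the assembly factors ndufaf4 and ndufaf2, as log2 of CPM plus 1, by stage. Symbols are group medians with a shape for each kind of library, and lines run from the lowest to the highest library. atp5if1b and ndufab1b rise between 6 ss and 24 hpf, and the medians of both assembly factors in plain and S libraries are lower at 96 hpf than at 6 ss.

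Assembly factors, which help to build the complexes but are not part of them, were mixed. Of the 11 taken by the symbol rule, 4 rose and 2 fell over the plain span (median 0.66), shares near the 32% and 22.6% of all genes. ndufaf4, a complex I assembly factor, was at 10.5 to 25.5 CPM at 6 ss (median 17.8), 1.54 to 6.72 at 48 hpf (median 4.72), 6.51 to 13.2 at 72 hpf (median 8.77) and 0 to 10.1 at 96 hpf (median 3.25). Its 6 ss libraries lay above all of those at 48 and 96 hpf, with a fall of -2.10 ± 0.37 (adjusted p = 3.4e-07) and of -1.33 ± 0.35 in S libraries. The other faller was ndufaf2, named after its values were seen (-0.79 ± 0.21), and sdhaf1 of complex II rose by 2.06 ± 0.56 on medians of 1.18 and 4.43 CPM.

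A separate list of 26 further assembly factors had 17 higher and 1 lower between 6 ss and 24 hpf, beside 21.1% and 11.2% of all genes. Between 24 and 48 hpf 0 were higher and 7 lower, beside 11.9% and 14.3% of all genes. Over the whole span 10 were higher and 4 lower (median 0.69), not far from the 32% and 22.6% of all genes. cox15, which makes heme A, rose by 2.63 ± 0.39, cox11, which delivers copper to complex IV, by 2.28 ± 0.40, and cox14 by 2.05 ± 0.21. These lists of other mitochondrial and metabolic genes are read beside the same 32% and 22.6% of all genes over the plain span. Of 18 genes of the citric acid cycle and pyruvate dehydrogenase, which feed electrons to the chain, 14 rose and 1 fell (median 1.495). Of 21 glycolysis genes, 18 rose and 0 fell, with a median of 3.95.

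Genes that maintain and express mitochondrial DNA went the other way. Of 10 such genes 0 rose and 6 fell from 6 ss to 96 hpf (median -0.81), over the span in which 12 of the 13 genes of that DNA rose. ssbp1, which coats single-stranded mitochondrial DNA and is named here after its values were seen, was at 48.1 to 85.4 CPM at 6 ss (median 60.5), 31.6 to 46.9 at 24 hpf (median 40.8) and 9.73 to 20.5 at 96 hpf (median 13.0). The ssbp1 ranges were separate, with a fall of -2.13 ± 0.19, and tfam, which packages and transcribes mitochondrial DNA, also named after its values were seen, fell by -0.67 ± 0.16.

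Of 9 regulators of mitochondrial biogenesis, 3 rose and 5 fell over the plain span, beside 32% and 22.6% of all genes. The part that rose was near that of all genes. pprc1, a coactivator of the PGC-1 family, was at 59.6 to 93.7 CPM at 6 ss (median 73.3), 16.5 to 32.5 at 24 hpf (median 28.7), 3.85 to 10.9 at 48 hpf (median 5.88) and 2.32 to 12.1 at 96 hpf (median 9.10). Its 6 ss, 24 hpf and 48 hpf ranges were separate, and it fell by -3.18 ± 0.26. ppargc1b, of the same family, was at 0.774 to 5.93 CPM at 6 ss (median 3.06), 9.15 to 16.9 at 24 hpf (median 14.2) and 12.7 to 29.1 at 96 hpf (median 17.2), and rose by 2.50 ± 0.37. The transcription factor nrf1, which binds promoters of many nuclear subunit genes in mammals, fell by -1.64 ± 0.20, with gabpa (-0.60 ± 0.15), yy1a (-0.77) and yy1b (-1.14 ± 0.17), while gabpb1 was at -0.03 and not called. ppargc1a and esrra, the remaining risers, averaged under 1 count per library and were not called with DESeq2 or with the replicate number as a block. cycsb, a cytochrome c gene, was at 215 to 267 CPM at 6 ss and 188 to 232 at 96 hpf, with -0.17 ± 0.10 that did not pass.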

How the data were processed

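Total RNA of RW zebrafish was sequenced by the 3′ method Lasy-Seq. The authors trimmed reads with fastp (version 0.21.0), mapped them to the GRCz11 transcripts with BWA (0.7.17-r1188) and counted them per gene with Salmon without strand, per the submitters' processing notes and the methods. The deposited values are estimated counts, of which 2 were not whole, and they were rounded. Unused columns of other samples numbered 0.

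Genes with at least 1 count in 8 libraries were kept (21638). One fit with a mean for each group of stage and kind was made with edgeR 4.0.16 in R 4.3.3 (TMM scaling, quasi-likelihood test, Benjamini-Hochberg adjustment, threshold 0.05). Scaling factors ranged from 0.783 to 1.22. CPM was computed from the counts with this scaling. The code of the fit was run on simulated plain libraries, with the same spread for every gene, below the common dispersion of the data (0.2308). Only genes with many expected counts were changed there, so that run does not cover genes with few counts. Depth was 866854 to 21646478 counts per library, which leaves members under 10 counts imprecise. No library was a repeat of another of its group (lowest chi-square per gene 3.68 over 408 pairs within groups). Libraries with identical counts throughout numbered 0, and pairs from different groups were not compared by chi-square.

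Alternatives were DESeq2 1.42.0, RLE factors, library totals, scaling without mitochondrial genes, other filters, libraries of the same kind alone, a fit without 1 shallow library, and a block for replicate numbers. Named genes were the 13 mitochondrially encoded genes and, for each complex, the 2 highest and the 2 lowest nuclear subunits averaging 10 counts or more. These subunits were ranked by the change from 6 ss to 96 hpf in plain libraries. Also named, without that minimum, were the sdh genes and paralogs called in opposite directions. So were assembly factors and inhibitors called at 4-fold or more, and the listed biogenesis regulators and cytochrome c genes. Genes outside the rule are marked in the text. The members and lists were chosen with earlier results of these data known. Of the members 99 matched RefSeq symbols. Sequences and coordinates were not used here, as the annotation was of another build. The values of 1 member are not reported here.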

Additional observations from a re-analysis of the deposited data

Results flagged for a closer look

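The levels of 12 genes, chosen after their values were seen, and the 2 shares with their ratio were screened for a library that stood apart from the others of its group, in 239 groups, of which 19 had one. Chance alone flags about 1 in 20 groups. The share of counts in nuclear subunits was 3.164% in DrRyu replicate 4 at 72 hpf (others 2.869% to 2.952%), and the ratio of mitochondrial to nuclear share was 2.095 in S replicate 5 at 96 hpf (others 1.836 to 1.953). Among mitochondrially encoded genes, mt-nd3 was at 3506 CPM in DrRyu replicate 8 at 24 hpf (others 507 to 1411) and mt-nd5 at 141 CPM in plain replicate 4 at 24 hpf (others 88.63 to 109.1).

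Among nuclear subunits, sdhc was low at 83.21 CPM in plain replicate 1 at 48 hpf (others 106 to 125.5) and at 28.81 CPM in DrRyu replicate 3 at 20 ss (others 46.92 to 59.65). cox6b1 was at 2.958 CPM in S replicate 4 at 6 ss. ndufa4 was at 4.822 CPM in S replicate 6 at 6 ss, 3.889 CPM in S replicate 4 at 15 ss and 185.3 CPM in plain replicate 8 at 72 hpf (others 106.8 to 136.7). cox8b was at 0.871 CPM in plain replicate 3 at 6 ss, low at 13.27 CPM in plain replicate 7 at 72 hpf (others 24.4 to 32.76), and at 16.7 CPM in DrRyu replicate 4 at 24 hpf (others 0 to 6.36). ndufab1a was at 185.4 CPM in S replicate 4 at 96 hpf (others 102.1 to 138).

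Among inhibitors, assembly factors and regulators, atp5if1b was at 86.32 CPM in plain replicate 4 at 20 ss and 246.7 CPM in plain replicate 2 at 96 hpf. ndufaf4 was at 29.2 CPM in S replicate 3 at 15 ss (others 16.58 to 19.56). pprc1 was low at 16.49 CPM in plain replicate 4 at 24 hpf (others 25.72 to 32.45) and high at 12.74 CPM in DrRyu replicate 1 at 48 hpf (others 0.8315 to 6.016).

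The change from 20 ss to 72 hpf differed between DrRyu and plain libraries by -0.6864 for ndufv1, -0.5791 for ndufb11, -0.5787 for atp5mc3a, -0.5159 for cox7a2a and 1.039 for atp5mea on the log2 scale. The adjusted p from edgeR ran from 0.000745 for atp5mc3a to 0.037 for atp5mea. The change from 6 ss to 96 hpf was larger in S than in plain libraries by 0.5459 for mt-co3 and 1.019 for uqcrc2a.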

How the results depend on the processing

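No named gene called from 6 ss to 96 hpf in plain libraries turned direction under the alternatives run, whereas cox6b2, cycsb and gabpb1, which were not called, changed sign under some scalings (to -0.07 with library totals, and to 0.06 and 0.19 with RLE size factors). The balance of calls from 72 to 96 hpf did turn with libraries of the same kind alone. In all, 104 of the 131 recomputed counts of called subunit genes lay within 1.5 times the reported one. With DESeq2 the calls numbered 79 for 24 to 48 hpf, 70 for 48 to 72 hpf, 10 for 72 to 96 hpf, 24 for 6 to 10 ss, 58 for 32 to 48 hpf, 3 between S and plain at 6 ss, 27 at 96 hpf, 12 for the difference between DrRyu and plain and 13 for that between S and plain. With RLE size factors they were 77 for 24 to 48 hpf, 57 for 32 to 48 hpf, 3 between S and plain at 6 ss and 6 for the difference between S and plain. With library totals they were 89 for 48 to 72 hpf, 3 for 72 to 96 hpf, 24 for 6 to 10 ss, and 3 at 6 ss and 2 at 96 hpf between S and plain. With libraries of the same kind alone they were 71, 82 and 27 for the 3 plain steps from 24 hpf on (10 higher and 17 lower in the last), 30 for 6 to 10 ss, 6 for 24 to 32 hpf and 14 for 32 to 48 hpf, and comparisons between kinds could not be fitted so. With no filter or filterByExpr the difference between S and plain had 5 calls. The cause of these shifts was not tested. For single named genes, 537 recomputed values kept their side of the threshold, 19 were newly called and 11 lost their call.

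Replicate numbers were not treated as pairs in the main fit. Same-numbered libraries had correlations of their deviations between -0.0665 and 0.0732. In all, 5 of 52 plain, 8 of 29 S and 8 of 40 DrRyu libraries lay closest to their own number. The counts to expect without pairing were not computed, so these values do not exclude it. With the replicate block the calls were 103 in place of 104 from 6 ss to 96 hpf in plain libraries, 93 in place of 94 from 6 ss to 24 hpf, and 2 in place of 1 between S and plain at 6 ss. Depth limits the genes with few counts most, such as sdhda.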
